A study of Mus musculus with 91 samples.

Results

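Antisense knockdown of Cd33 in the amyloid-bearing hippocampus was examined in 21 of the 91 deposited arrays, 12 from APP/PS1 mice infused with the CD33 ASO and 9 from APP/PS1 mice infused with PBS vehicle. Members were taken by their labelled tissue, genotype and treatment, with no array left out. All 21 mice were labelled as carrying the APP/PS1 double transgene and received a cannula into the right lateral ventricle with an osmotic pump that delivered 6 µL per day over 14 days. Mice were 18 weeks old when the infusion began and 22 weeks old at death. The CD33 ASO was infused at 50 µg per day, and PBS mice received the vehicle alone. For reference values, 13 hippocampal arrays came from APP/PS1 mice given a non-target control oligonucleotide (CON ASO, 50 µg per day) and 12 from wild-type (WT) littermates given PBS, and frontal cortex of the same experiment gave 11 CD33 ASO and 9 PBS arrays. RNA was taken from the whole left hippocampus, the hemisphere opposite the cannula, and each array is a separate mouse.

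CD33 belongs to the sialic-acid-binding Siglec receptors, is carried by microglia and peripheral myeloid cells, and has a cytoplasmic tail that recruits inhibitory phosphatases, and variants of the human gene are associated with Alzheimer disease risk. An antisense oligonucleotide (ASO) is a short modified DNA-like strand that pairs with an RNA and lowers its level in the cells that take it up. APP/PS1 mice produce mutant human amyloid precursor protein and presenilin 1 in neurons and develop amyloid plaques surrounded by activated microglia and astrocytes.

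Signal is given below as normalised log2 intensity of the brightest probe of a gene, after an offset of 16 that understates the change of dim probes, and a difference is the CD33 ASO mean minus the PBS mean. Between 12951 and 13905 of the 25697 probes were detected (detection p under 0.05) on an array, with a median of 13396 over the CD33 ASO arrays and 13286 over the PBS arrays. Arrays lay on 6 chips and mice were collected on 4 days, each of which held both groups. The hippocampal field markers Prox1, C1ql2, Wfs1, Fibcd1 and Nptx1 were detected on all 12 CD33 ASO and all 9 PBS arrays. Because whole tissue was measured, fewer cells of a type and less RNA per cell cannot be told apart.

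3 CD33 ASO arrays stood apart. Replicate 3 had a Thy1 level of 14.02, inside the WT range of 13.96 to 14.18, whereas PBS arrays lay between 14.81 and 14.92; the APP/PS1 transgenes are driven by a Thy1 promoter cassette, as background on this line. Cst7, a cysteine protease inhibitor gene of microglia at plaques, read 5.37 on this array, against 8.06 to 9.12 on PBS arrays and 4.76 to 5.38 on WT arrays. The Avil signal was missing from replicates 7 and 10, unlike the other CD33 ASO arrays, and both had the highest Cd33 values of their group. The arrays were kept as labelled, and the fits were repeated without them.

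The targeted transcript was lower under the CD33 ASO. Cd33 (chromosome 7) had a lowest, median and highest signal of 5.07, 5.51 and 6.38 on CD33 ASO arrays, against 6.19, 6.46 and 6.97 on PBS arrays. Of the 12 CD33 ASO arrays, 10 lay below every PBS array, and replicate 7 (6.38) and replicate 10 (6.21) lay within the PBS range. The means were 5.60 ± 0.39 (SD, n = 12) under the CD33 ASO and 6.49 ± 0.23 (SD, n = 9) under PBS, a difference of -0.89 ± 0.12 (SE) that left 54.0% of the PBS signal (limma adjusted p = 7.1e-06). The Cd33 probe was detected on 8 of 12 CD33 ASO arrays and on 9 of 9 PBS arrays. The difference was between -1.20 and -0.68 on the 6 chips, between -1.09 and -0.54 on the 4 collection days, and -1.01 ± 0.10 without replicates 3, 7 and 10. Replicates 7 and 10 had the highest Cd33 values of their group, so a larger fall without them was favoured in advance. Mice given CON ASO differed from PBS mice by 0.03 (adjusted p = 0.943), and CD33 ASO differed from CON ASO by -0.92 ± 0.11 (adjusted p = 1.94e-07). For scale, Cd33 ranged from 5.66 to 6.31 on WT arrays with a median of 5.98.

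Avil, which encodes the actin-bundling protein advillin, known mainly from sensory neurons, moved the opposite way. Its signal had a lowest, median and highest value of 4.54, 6.72 and 7.27 on CD33 ASO arrays and 4.56, 4.72 and 5.62 on PBS arrays. Replicates 7 and 10 were the only CD33 ASO arrays not above all PBS arrays. Avil was detected on 10 of 12 CD33 ASO arrays and on 1 of 9 PBS arrays, and it rose by 1.58 ± 0.21, a fold of 2.99 (limma adjusted p = 7.1e-06). The CON ASO minus PBS difference was 0.08 (adjusted p = 0.91), and CD33 ASO exceeded CON ASO by 1.49 (adjusted p = 2.27e-06). Of 10 tested genes for Siglec receptors and their inhibitory phosphatases, Cd33 alone passed the threshold with all arrays, and 6 of the 10 differences were positive. With all arrays 0.339% of all genes were called lower. Mag, a Siglec of myelin, also passed downward without replicates 3, 7 and 10, in a fit that called 1.23% of all genes lower.

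**Figure D1:**
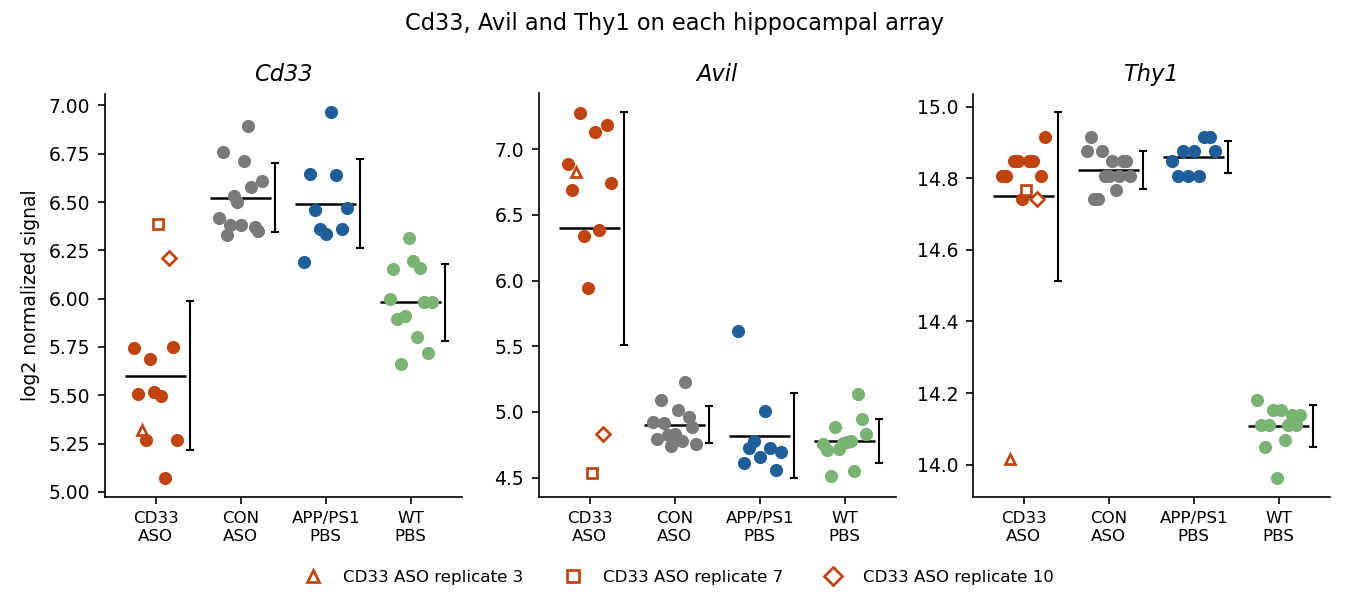
Normalised log2 signal (vertical axes) of Cd33, Avil and Thy1 on each hippocampal array of the CD33 ASO, CON ASO, APP/PS1 PBS and WT PBS groups, with group means (horizontal lines) and SDs (error bars) and open symbols for CD33 ASO replicates 3, 7 and 10. Replicates 7 and 10 lie at the level of the PBS arrays for Cd33 and Avil, and replicate 3, at 14.02, lies among the WT arrays for Thy1.

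Across the array, 73 of 14449 tested probes (0.505%) differed between CD33 ASO and PBS at a limma adjusted p under 0.05, 26 of them higher (0.18%) and 47 lower (0.325%). Read by the brightest probe of each gene, 57 of 10042 genes (0.568%) passed, 23 higher (0.229%) and 34 lower (0.339%). The changes were small: the median size over the 73 probes was 0.41 on the log2 scale, and 6 probes exceeded 1. The median difference over all probes was -0.003. Only Zfp46 and Gab3 (0.0199% of genes tested) had groups that did not overlap. In a fit of the 21 arrays alone, which does not borrow the spread of the CON ASO and WT arrays, 7 probes passed, those of Cd33, Avil, Gdpd3, Anln, Cirbp, Zfp46 and Tfrc. Leaving out single arrays in turn kept 13 of the 57 genes past the threshold every time.

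**Figure D2:**
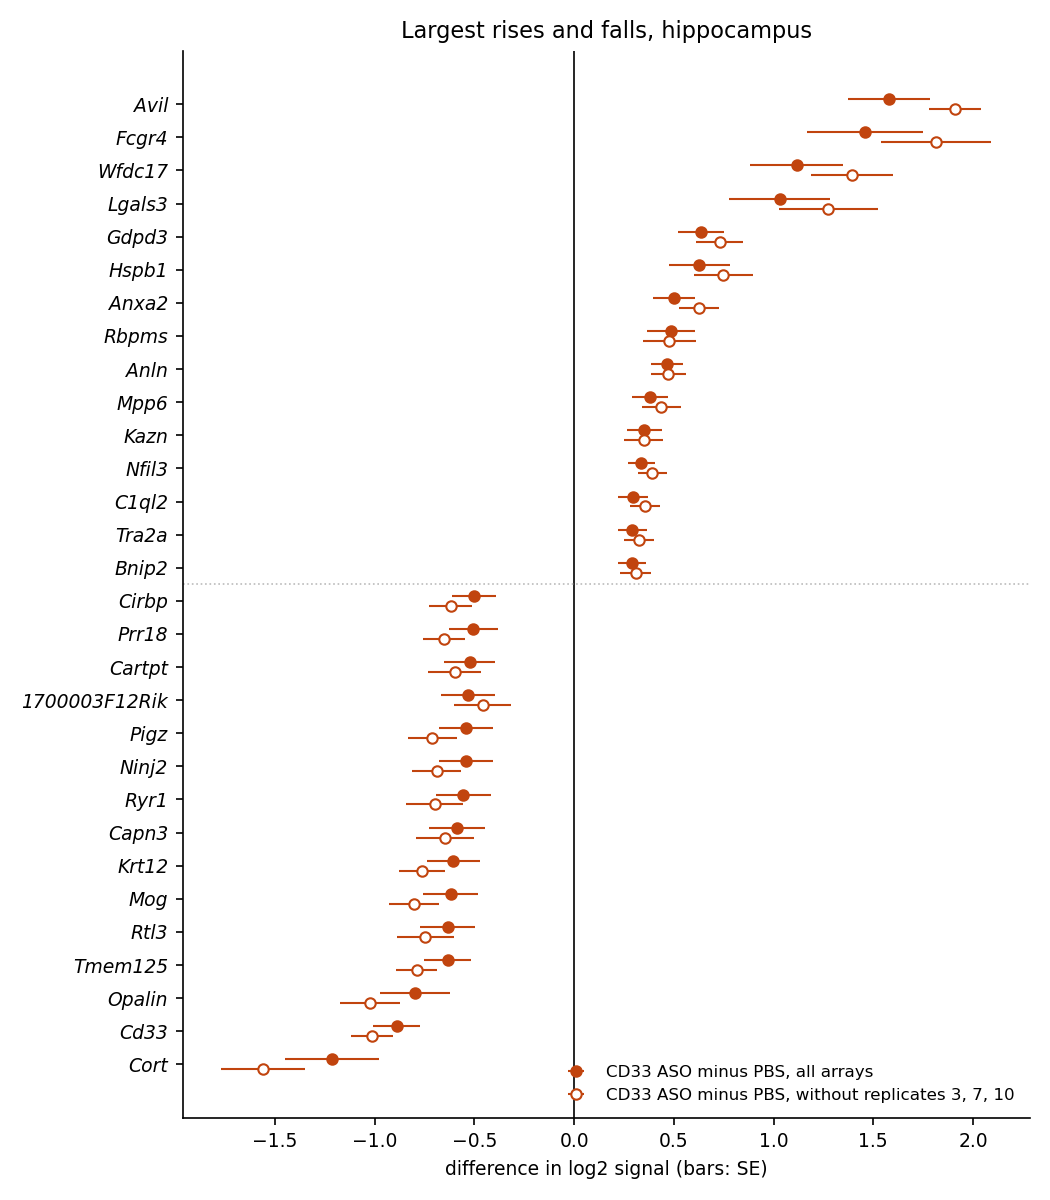
Difference in log2 signal, CD33 ASO minus PBS (horizontal axis, bars show the SE), for the 15 largest rises and 15 largest falls past the threshold, with all arrays (filled) and without CD33 ASO replicates 3, 7 and 10 (open). Avil (1.58) and Fcgr4 (1.46) lead the rises, Cort (-1.21) and Cd33 (-0.89) lead the falls. Replicates 7 and 10 were picked out for lacking Avil signal, so the open point of Avil is not a result.

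The largest rises after Avil were in genes of phagocytes. Fcgr4, an activating receptor for immunoglobulin G on microglia and macrophages, had a lowest, median and highest signal of 6.38, 7.99 and 9.70 on CD33 ASO arrays and 5.76, 6.34 and 8.22 on PBS arrays. The groups overlapped through PBS replicate 6 (8.22), since the next highest PBS array was at 6.38. Fcgr4 rose by 1.46 ± 0.29 (limma adjusted p = 0.0141), and by 1.82 without replicates 3, 7 and 10, and its CON ASO minus PBS difference was 1.06 (adjusted p = 0.0487). Wfdc17, a secreted whey-acidic-protein-domain factor of macrophages, ranged from 5.00 to 7.36 with a median of 6.45 under the CD33 ASO and from 4.75 to 5.91 with a median of 5.24 under PBS. Again replicates 7 and 10 were the CD33 ASO arrays inside the PBS range. Wfdc17 rose by 1.12 ± 0.23 (adjusted p = 0.019) and was detected on 10 of 12 CD33 ASO arrays and 3 of 9 PBS arrays. Its CON ASO minus PBS difference was 1.44 (adjusted p = 0.000124).

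Lgals3, which encodes the carbohydrate-binding protein galectin-3 of activated microglia, ranged from 7.25 to 9.69 (median 8.59) on CD33 ASO arrays and from 6.94 to 8.03 (median 7.65) on PBS arrays. The other 10 CD33 ASO arrays lay above the PBS range, and replicates 7 and 10 inside it. It rose by 1.03 ± 0.25, a fold of 2.04 (limma adjusted p = 0.048). That call was lost in 15 of 21 omissions of a single array, among them that of replicate 3 (difference 1.04, adjusted p = 0.0574), with adjusted p up to 0.108, while without replicates 3, 7 and 10 the difference was 1.28 (adjusted p = 0.00283). Under CON ASO the difference from PBS was larger, 2.14 (adjusted p = 3.1e-07), and CD33 ASO differed from CON ASO by -1.11 ± 0.23 (adjusted p = 0.0228); without the 3 arrays this last value was -0.87 (adjusted p = 0.22). Gpnmb, a glycoprotein of lipid-laden phagocytes, missed the threshold against PBS at 0.69 (adjusted p = 0.0565) with all arrays and passed it without replicate 3 (0.75, adjusted p = 0.0357). Its CON ASO minus PBS difference was 1.68, and CD33 ASO differed from CON ASO by -0.99 (adjusted p = 0.000496).

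Markers shared by all microglia gave no call with all arrays. None of 18 tested pan-microglial genes then passed the threshold (median difference 0.03, with -0.003 for all probes), whereas 3 (Fcer1g, C1qb and C1qc) passed upward without replicates 3, 7 and 10 (median 0.14), in a fit that called 134 of all genes higher (1.33%). Their summed signal ranged from 16698 to 36363 on CD33 ASO arrays and from 22469 to 34676 on PBS arrays. Of 26 genes known from plaque-associated microglia, Lgals3 alone passed, and 21 of the 26 differences were positive with a median of 0.11; without replicates 3, 7 and 10, Gpnmb, Lgals3 and Lyz2 passed upward. Trem2, the lipid-sensing receptor of those cells, differed by 0.02 (adjusted p = 0.98). Among 13 genes of lipid-laden phagocytes Lgals3 again was the only call with all arrays, with a median difference of 0.19. With all arrays 0.229% of all genes were called higher. Without replicates 3, 7 and 10, Gpnmb, Lgals3 and Fcna of that list passed upward and Fyco1 downward, and without replicates 7 and 10 alone Plin4 passed upward as well. Of 7 border-macrophage genes none passed with all arrays, and Fcna passed upward without replicates 3, 7 and 10. Tested directly, CD33 ASO was lower than CON ASO for 6 of the 13 lipid-laden and 3 of the 7 border-macrophage genes, in a comparison that called 0.11% of all genes lower. CON ASO minus PBS, from the same PBS arrays, called 6 of the 13 and 4 of the 7 upward (0.976% of all genes). The lists share Fcna and were chosen with earlier results of these data known, so these counts are no test of either list. Of the markers that define border macrophages, Mrc1 was detected on all 12 CD33 ASO and all 9 PBS arrays. Ms4a7 was detected on 11 of 12 and 7 of 9, and F13a1 on 0 of 12 and 1 of 9. Cd163 and Pf4 were detected on none of the 21 arrays. The summed signal of the border-macrophage list ranged from 534 to 1047 on CD33 ASO arrays and from 439 to 1025 on PBS arrays.

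Complement and interferon-response genes were mostly higher in mean without passing the test. All 10 complement genes had a positive difference, with a median of 0.24, and none passed; C1qb, a chain of the initiating C1 complex, differed by 0.25 (adjusted p = 0.296) and Serping1, the C1 inhibitor, by 0.59 (adjusted p = 0.131). Of 21 interferon-response genes, 19 had a positive difference (median 0.35) and none passed, with Ifitm3, an interferon-induced membrane protein, at 0.46 (adjusted p = 0.139). CON ASO minus PBS, from the same PBS arrays, was positive for all 10 complement genes (median 0.27) and called 2 higher. It was positive for 20 of the 21 interferon-response genes (median 0.42) and called 4 higher, with 0.976% of all genes. No gene of either list passed for CD33 ASO minus CON ASO. For CD33 ASO minus PBS without replicates 3, 7 and 10, 4 complement genes passed upward (C1qb, C1qc, C4b and Serping1). So did 2 interferon-response genes (Ifitm3 and Irf9), in a fit that called 1.33% of all genes higher. Choroid plexus genes differed in the same direction: 16 of 16 tested had a positive difference (median 0.58), none past the threshold with all arrays and Rarres2 past it without replicates 3, 7 and 10. The defining markers Ttr, Kl and Clic6 were detected on all 12 CD33 ASO and all 9 PBS arrays. Folr1 was detected on 12 of 12 and 8 of 9, and Aqp1 on 11 of 12 and 6 of 9. The same list had a median of 0.93 for CON ASO minus PBS (16 of 16 positive) and of -0.78 for APP/PS1 PBS minus WT (0 of 16 positive). All 3 comparisons share the APP/PS1 PBS arrays. Their summed signal ranged from 9746 to 57826 (median 29748) on CD33 ASO arrays and from 7915 to 46868 (median 13501) on PBS arrays. The part of choroid plexus RNA in the differences above was not tested.

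**Figure D3:**
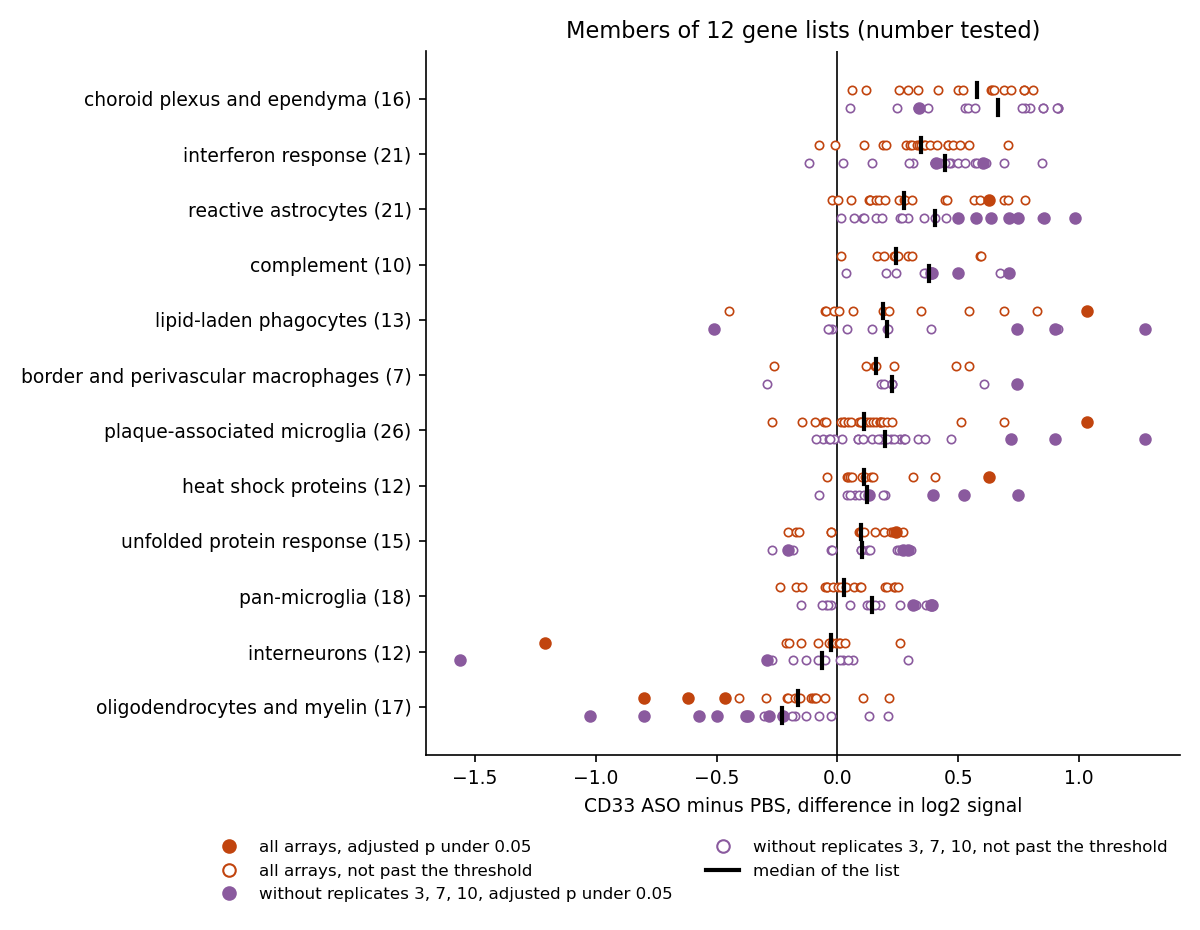
Difference in log2 signal, CD33 ASO minus PBS (horizontal axis), of each tested member of 12 gene lists, with all arrays (orange) and without CD33 ASO replicates 3, 7 and 10 (purple); filled circles passed the threshold and black ticks are list medians. With all arrays the complement, interferon and choroid plexus lists have positive medians and no filled circle, and the myelin list has 3 filled circles, all below 0.

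Stress and structural genes were among the rises as well. Hspb1, the small heat shock protein HSP27, ranged from 6.82 to 8.19 (median 7.83) on CD33 ASO arrays and from 6.43 to 7.56 (median 7.10) on PBS arrays. The 8 CD33 ASO arrays other than replicates 2, 7, 9 and 10 lay above all PBS arrays. Hspb1 rose by 0.63 ± 0.15 (limma adjusted p = 0.0422), a call lost in 16 of 21 single-array omissions (adjusted p up to 0.116), and its CON ASO minus PBS difference was 0.80. In a comparison that called 0.229% of all genes higher, it was the only called member of 12 heat shock genes (median 0.11) and of 21 reactive-astrocyte genes (median 0.27, 20 positive), in which Gfap, the astrocyte intermediate filament, differed by 0.28 (adjusted p = 0.484). Without replicates 3, 7 and 10, 4 heat shock genes (Hspb1, Dnajb1, Bag3 and Hspb8) and 7 reactive-astrocyte genes (Vim, Serpina3n, Lcn2, Hspb1, C4b, Serping1 and Emp1) passed upward, with 1.33% of all genes.

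Xbp1, a transcription factor of the unfolded protein response, ranged from 11.55 to 11.99 (median 11.77) under the CD33 ASO and from 11.31 to 11.67 (median 11.60) under PBS. Replicate 7 alone lay inside the PBS range. Xbp1 rose by 0.24 ± 0.06 (limma adjusted p = 0.0288), lost its call in 6 of 21 single-array omissions (adjusted p up to 0.085), and was the only call among 15 genes of that response (median 0.10). With all arrays 0.229% of all genes were called higher. Xbp1 and Dnajc3 passed upward and Sel1l downward without replicates 3, 7 and 10. That fit called 1.33% of all genes higher and 1.23% lower. Creld2, a secreted endoplasmic reticulum chaperone gene, was called through a probe other than its brightest, 8.55 ± 0.16 (SD, n = 12) under the CD33 ASO and 8.22 ± 0.14 (SD, n = 9) under PBS, a difference of 0.33 ± 0.08 (adjusted p = 0.0303), and its brightest probe differed by 0.22 (adjusted p = 0.143).

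Promoter windows of Hspb1 and Creld2 are shown because both genes are textbook carriers of a stress element. They are the 250 bases before the transcription start in the RefSeq annotation of GRCm38.p6, written 5′ to 3′ on the gene's strand, with the matched letters in capitals. In Hspb1 (chr5:135887669-135887918, plus strand) the capitals mark 2 matches to the heat shock element core GAANNTTC, starting 117 and 97 bases before the start. In Creld2 (chr15:88819396-88819645, plus strand) they mark 1 reverse-strand match to the endoplasmic reticulum stress element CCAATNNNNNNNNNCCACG, 126 bases before the start.
Hspb1: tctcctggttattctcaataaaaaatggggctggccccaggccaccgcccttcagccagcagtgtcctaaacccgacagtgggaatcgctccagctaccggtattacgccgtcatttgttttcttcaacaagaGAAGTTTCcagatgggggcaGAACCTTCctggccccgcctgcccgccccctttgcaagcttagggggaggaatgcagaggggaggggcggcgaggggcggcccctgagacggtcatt
Creld2: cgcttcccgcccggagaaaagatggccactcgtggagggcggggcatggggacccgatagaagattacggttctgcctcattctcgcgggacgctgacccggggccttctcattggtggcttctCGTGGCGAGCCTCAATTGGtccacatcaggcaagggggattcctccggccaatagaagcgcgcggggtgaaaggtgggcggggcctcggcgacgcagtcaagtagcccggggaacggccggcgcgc
Searched on both strands, the heat shock core was present in 6.69% of 32851 annotated promoters (7.73% of 27025 genes) and the endoplasmic reticulum stress element in 0.113% (0.13% of genes). Of the 66 genes called by any probe, 9 of them only by a probe other than the brightest, 55 had a promoter in the table, of which 6 held the first (10.9%) and 1 held the second (1.82%). A match describes letters and not a bound site.

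Gdpd3, a lysophospholipase D gene, was among the steadiest rises, past the threshold with each array left out and in each other setting tried. It ranged from 6.04 to 6.88 (median 6.54) on CD33 ASO arrays and from 5.63 to 6.54 (median 5.77) on PBS arrays. PBS replicate 6, at 6.54, stood above the other PBS arrays, and 6 CD33 ASO arrays exceeded it. Gdpd3 rose by 0.64 ± 0.12 (limma adjusted p = 0.00406), its CON ASO minus PBS difference was 0.22 (adjusted p = 0.391), and CD33 ASO minus CON ASO was 0.41 (adjusted p = 0.16) with all arrays and 0.51 (adjusted p = 0.0265) without replicates 3, 7 and 10. Anln, anillin, which binds actin and septins and is part of the septin scaffold of myelin, ranged from 9.74 to 10.24 (median 9.98) under the CD33 ASO and from 9.26 to 9.82 (median 9.46) under PBS. Of the CD33 ASO arrays 8 lay above all PBS arrays, and Anln rose by 0.47 ± 0.08 (adjusted p = 0.00212), with 0.42 for CON ASO minus PBS. Anxa2, a calcium-dependent membrane-binding annexin, rose by 0.50 ± 0.11 (adjusted p = 0.0194), against 0.56 for CON ASO minus PBS.

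The remaining rises were below 0.5 and closer to the threshold. Rbpms, an RNA-binding protein, rose by 0.49 (limma adjusted p = 0.049), Mpp6, a membrane scaffold protein, by 0.38 (adjusted p = 0.0369), and Tra2a, a splicing regulator, by 0.29 (adjusted p = 0.0483). C1ql2, a synaptic organiser secreted by dentate granule cells, rose by 0.30 (adjusted p = 0.0498) and was the only call among 13 hippocampal field genes. Over all genes 0.229% were called higher. Hibadh, an enzyme of valine breakdown, rose by 0.19 (adjusted p = 0.0264), with 0.03 for CON ASO minus PBS. The smallest called rise was that of Cops2, a subunit of the COP9 signalosome, at 0.15 ± 0.03 (adjusted p = 0.0348). Single-array omissions ended these calls in 15 of 21 fits for Rbpms, 12 for Mpp6, 17 for Tra2a, 18 for C1ql2, 5 for Hibadh and 11 for Cops2.

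Some genes of oligodendrocytes and myelin fell. Opalin, a membrane protein of the myelin paranode and inner loop, ranged from 8.94 to 11.29 (median 10.17) on CD33 ASO arrays and from 10.61 to 11.15 (median 10.99) on PBS arrays. Replicate 10, at 11.29, was above every PBS array, replicates 7 and 9 were inside the PBS range, and the other 9 arrays were below it. Opalin fell by 0.80 ± 0.18 (limma adjusted p = 0.025), with -0.71 for CON ASO minus PBS (adjusted p = 0.0232), and by 1.02 without replicates 3, 7 and 10. Its call was lost without CD33 ASO replicate 11 (-0.76, adjusted p = 0.0551), PBS replicate 4 (-0.78, adjusted p = 0.0564) and PBS replicate 7 (-0.78, adjusted p = 0.0519). Mog, an immunoglobulin-domain protein of the outer myelin surface, ranged from 8.40 to 9.77 (median 8.86) under the CD33 ASO and from 8.84 to 10.00 (median 9.55) under PBS. Its groups overlapped on 6 CD33 ASO arrays, and it fell by 0.62 ± 0.14 (adjusted p = 0.0274) with both of its 2 probes called, a call that 8 of 21 single-array omissions ended (adjusted p up to 0.078).

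Mobp, which encodes a small basic protein between myelin membranes, ranged from 9.75 to 11.10 (median 10.48) on CD33 ASO arrays and from 10.75 to 11.17 (median 11.00) on PBS arrays. Replicates 7, 9 and 10 lay inside the PBS range and the other 9 CD33 ASO arrays below it. Mobp fell by 0.46 ± 0.10 (limma adjusted p = 0.0216), or by 0.44 without PBS replicate 4 (adjusted p = 0.056), and its CON ASO minus PBS difference was -0.13 (adjusted p = 0.634). CD33 ASO minus CON ASO was -0.34 (adjusted p = 0.183) by this probe and -0.59 ± 0.10 (adjusted p = 0.00146) by another Mobp probe, which differed from PBS by -0.49 (adjusted p = 0.0288); by the brightest probe it was -0.45 (adjusted p = 0.00524) without replicates 3, 7 and 10. Cnp, a myelin phosphodiesterase, was called through 1 of its probes (-0.37 ± 0.08, adjusted p = 0.0288) and not through its brightest (-0.41, adjusted p = 0.106).

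Over the 17 tested genes of the myelin list, 3 fell, none rose, and the median difference was -0.16, in a comparison that called 0.339% of all genes lower. Mbp, the most abundant myelin transcript, differed by -0.09 (limma adjusted p = 0.339). Their summed signal ranged from 53696 to 74043 (median 61352) on CD33 ASO arrays and from 62951 to 75852 (median 68747) on PBS arrays. Without replicates 3, 7 and 10, 8 of the 17 passed downward (Mog, Mag, Mobp, Cnp, Cldn11, Opalin, Hapln2 and Fa2h), with a median of -0.23, in a fit that called 1.23% of all genes lower. None of 7 oligodendrocyte precursor genes passed with either set of arrays. For CON ASO minus PBS, from the same PBS arrays, 3 of the 17 myelin-list genes were called lower and 1 higher (median -0.13). That comparison called 0.498% of all genes lower and 0.976% higher. CD33 ASO minus CON ASO called 2 of the 17 lower, with 0.11% of all genes. Mog, Mobp and Opalin, the 3 that fell against PBS, were not among those 2 when read by their brightest probes. Called genes outside the list went in both directions, and Anln, part of the septin scaffold of myelin, rose, with the values given above. Tmem125, a membrane protein gene transcribed in oligodendrocytes, ranged from 7.00 to 8.40 (median 7.33) under the CD33 ASO and from 7.75 to 8.42 (median 8.13) under PBS. Apart from replicates 7, 9 and 10, its CD33 ASO arrays lay below all PBS arrays, and it fell by 0.63 ± 0.12 (adjusted p = 0.00576), with -0.51 for CON ASO minus PBS. Pllp, the myelin proteolipid plasmolipin, fell by 0.41 (adjusted p = 0.0413) and Ninj2, the adhesion protein ninjurin 2, by 0.54 (adjusted p = 0.046); their calls were lost in 16 and 15 of 21 single-array omissions.

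The largest fall was in a neuropeptide gene. Cort encodes cortistatin, a somatostatin-like peptide of cortical and hippocampal interneurons, and ranged from 6.26 to 9.11 (median 8.16) on CD33 ASO arrays and from 8.95 to 9.39 (median 9.13) on PBS arrays. Replicate 7 (9.11) and replicate 10 (9.04) lay inside the PBS range, and the other 10 CD33 ASO arrays lay below it. Cort averaged 7.94 ± 0.91 (SD, n = 12) under the CD33 ASO and 9.15 ± 0.15 (SD, n = 9) under PBS, so that it fell by 1.21 ± 0.24, a fold of 2.32 (limma adjusted p = 0.0102), with both of its 2 probes called. The difference was between -1.77 and -0.90 on the 6 chips and -1.56 ± 0.21 without replicates 3, 7 and 10. CON ASO mice differed from PBS mice by -1.19 (adjusted p = 0.00259), and CD33 ASO minus CON ASO was -0.03 (adjusted p = 0.997). Among 12 interneuron genes Cort was the only call with all arrays (median -0.03). Pvalb, the calcium buffer of fast-spiking interneurons, also passed downward without the 3 arrays. With all arrays 0.339% of all genes were called lower, and without the 3 arrays 1.23%.

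Other neuronal falls were smaller, and general neuronal genes showed none: 0 of 17 passed, with a median difference of -0.06. Cartpt, a neuropeptide precursor, ranged from 6.00 to 7.16 (median 6.66) on CD33 ASO arrays and from 6.74 to 7.44 (median 7.01) on PBS arrays. Its groups overlapped on replicates 6, 7 and 9, and it fell by 0.52 (limma adjusted p = 0.0413). Ryr1, an intracellular calcium release channel, fell by 0.55 (adjusted p = 0.0498), Cacnb4, a calcium channel subunit, by 0.22 (adjusted p = 0.0274), Ncam1, a neural adhesion molecule, by 0.33 (adjusted p = 0.0369), and Rims2, a presynaptic active-zone protein, by 0.27 (adjusted p = 0.0498). Each of these 5 calls was lost in 5 or more of the 21 single-array omissions. The other kept probe of Cacnb4 differed by 0.07, in the opposite direction, and was not called.

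Output genes of the circadian clock and a cold-inducible gene were among the calls, in either direction. In the clock feedback loop BMAL1 and CLOCK drive transcription through E-boxes, and Nr1d1 (REV-ERB alpha) and the PAR-domain factor Dbp are among their targets. Nr1d1 ranged from 8.15 to 9.17 (median 8.76) on CD33 ASO arrays and from 8.97 to 9.67 (median 9.11) on PBS arrays. Only replicates 7 and 10, both at 9.17, reached the PBS range, and Nr1d1 fell by 0.49 ± 0.11 (limma adjusted p = 0.0216). Dbp ranged from 11.91 to 12.55 (median 12.23) under the CD33 ASO and from 12.39 to 12.79 (median 12.66) under PBS. Its groups overlapped on replicates 2, 5, 7, 9 and 10, and it fell by 0.38 ± 0.08 (adjusted p = 0.0216), a call lost without CD33 ASO replicate 1 (-0.36, adjusted p = 0.051) or replicate 11 (-0.36, adjusted p = 0.0522).

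Nfil3, a repressor that competes with Dbp for the same DNA element, rose. It ranged from 8.68 to 9.31 (median 8.93) on CD33 ASO arrays and from 8.45 to 8.77 (median 8.58) on PBS arrays, with replicate 3 as the sole CD33 ASO array inside the PBS range, and the difference was 0.34 ± 0.07 (limma adjusted p = 0.0141). Cirbp, a cold-inducible RNA-binding protein, ranged from 8.49 to 9.60 (median 9.17) under the CD33 ASO and from 9.52 to 9.71 (median 9.65) under PBS. That narrow PBS range held replicates 7 and 10, the other 10 lay below it, and Cirbp fell by 0.50 ± 0.11 (adjusted p = 0.0216; 0.49 without CD33 ASO replicate 11, adjusted p = 0.0516). The CON ASO minus PBS differences were -0.51 for Nr1d1, -0.45 for Dbp, 0.33 for Nfil3 and -0.50 for Cirbp, from the same PBS arrays.

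Ciart, a repressor of the BMAL1 and CLOCK pair, was called through a probe other than its brightest. That probe ranged from 7.66 to 8.69 (median 8.17) on CD33 ASO arrays and from 8.38 to 8.80 (median 8.74) on PBS arrays, so the groups overlapped. It fell by 0.51 ± 0.12 (limma adjusted p = 0.0303), whereas the brightest probe differed by -0.46 (adjusted p = 0.142). Of 16 tested genes of the clock and its outputs, a list drawn up after values were seen and so with no weight as a count, Nfil3 rose, Dbp, Nr1d1 and Cirbp fell, and 12 did not pass (differences of -0.46 to 0.29). Over all genes 0.229% rose and 0.339% fell. Per2, a core repressor, differed by 0.29 (adjusted p = 0.126), Clock by 0.20 (adjusted p = 0.113), Per1 by -0.12 (adjusted p = 0.575) and Arntl, the gene of BMAL1, by -0.03 (adjusted p = 0.952). The hour of collection is not given in the sources used, and its part in these differences was not tested.

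The Ciart promoter is shown because it is dense in the E-box that BMAL1 and CLOCK bind. The window (chr3:95882229-95882478, minus strand, GRCm38.p6, RefSeq) is the 250 bases before the start, 5′ to 3′ on the gene's strand, and the capitals mark 3 matches to CACGTG, starting 116, 58 and 44 bases before the start.
Ciart: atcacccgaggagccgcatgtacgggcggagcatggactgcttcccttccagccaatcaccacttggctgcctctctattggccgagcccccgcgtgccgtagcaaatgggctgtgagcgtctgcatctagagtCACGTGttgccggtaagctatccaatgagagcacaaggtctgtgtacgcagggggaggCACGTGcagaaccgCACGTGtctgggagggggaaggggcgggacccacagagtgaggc
CACGTG, a palindrome and so the same on both strands, was present in 6.02% of 32851 annotated promoters of this length (6.86% of genes), and 20 promoters (0.0609%) held 3 or more. Among the 55 genes called by any probe that had a promoter in the table, 5 held it (9.09%).

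Zfp46 and Gab3 were the genes whose groups did not overlap. Zfp46, a zinc finger protein gene, ranged from 10.42 to 10.90 (median 10.74) on CD33 ASO arrays and from 10.93 to 11.16 (median 11.06) on PBS arrays. Every CD33 ASO array, replicates 3, 7 and 10 included, lay below every PBS array, and Zfp46 fell by 0.32 ± 0.05 (limma adjusted p = 0.000148), against -0.36 for CON ASO minus PBS. Gab3, an adaptor protein downstream of the macrophage receptor for colony-stimulating factor, ranged from 7.27 to 7.79 (median 7.64) under the CD33 ASO and from 7.80 to 8.04 (median 7.90) under PBS. It fell by 0.30 ± 0.07 (adjusted p = 0.0427), a call lost in 14 of 21 single-array omissions (adjusted p up to 0.102). Tfrc, the transferrin receptor, fell by 0.22 ± 0.05 (adjusted p = 0.0216), with replicates 7 and 10 the only CD33 ASO arrays inside the PBS range, and it kept its call with each array left out.

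Several falls had no list. Krt12, a keratin gene, fell by 0.61 (limma adjusted p = 0.0216; 0.58 without CD33 ASO replicate 11, adjusted p = 0.0516). Capn3, a calcium-dependent protease, fell by 0.59 (adjusted p = 0.0361), and Stat5a, a cytokine-activated transcription factor, by 0.48 (adjusted p = 0.0327), with calls lost in 10 and 6 of the 21 omissions. Rtl3, a retrotransposon-derived gene on chromosome X, was detected on 2 of 12 CD33 ASO arrays and 9 of 9 PBS arrays and fell by 0.63 ± 0.14 (adjusted p = 0.0216), a call lost in 4 of the 21 omissions, those of CD33 ASO replicate 11 (-0.59, adjusted p = 0.0516) and of PBS replicates 4, 5 and 7 (-0.61 to -0.60, adjusted p up to 0.0564).

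Of the 35 gene lists examined, 9 held a called member and 26 held none, in a comparison that called 0.568% of all genes. The lists overlap: Lgals3 was the only call of both the plaque-associated and the lipid-laden list. Hspb1 was the only call of both the heat shock and the reactive-astrocyte list. The lists for antigen presentation, lysosomes, Toll-like receptors, cytokines, glucocorticoid targets, p53 targets, cholesterol synthesis, amyloid precursor processing, mitochondrial respiration and proliferation had no call in either direction with all arrays. Leaving out replicates 3, 7 and 10, Sgk1, Pdk4 and Sult1a1 of the glucocorticoid targets, Gadd45a and Gadd45b of the p53 targets, Tlr2 of the Toll-like receptors and Ctsh of the lysosomal genes passed upward (1.33% of all genes). App, the amyloid precursor gene, differed by 0.07 (limma adjusted p = 0.709).

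Replicates 7 and 10 were often the CD33 ASO arrays inside the PBS range above. Of the 57 called genes, replicate 7 lay inside the PBS range for 46, replicate 9 for 27, replicate 10 for 26 and replicate 3 for 14. In that order the shares were 80.7%, 47.4%, 45.6% and 24.6%, against 88.0%, 70.2%, 81.2% and 77.8% of all genes on the same arrays. These arrays took part in the calls. A fit without replicates 3, 7 and 10 called 258 genes (2.57%), chosen by the other 9 arrays. For those 258 genes, replicate 7 lay inside the PBS range for 229, replicate 10 for 194 and replicate 3 for 153. Each of the other 9 arrays did so for 34 to 154 (median 94), the 154 being replicate 9. Those 9 arrays chose the genes, so their lower counts were favoured in advance and are no test of the 3 arrays. The shares were 88.8% for replicate 7, 75.2% for replicate 10 and 59.3% for replicate 3, against 88.0%, 81.2% and 77.8% of all genes on the same arrays. Over all genes the share inside the PBS range was between 65.3% and 88.0% on every CD33 ASO array. In probes, 324 passed without the 3 arrays (156 higher and 168 lower), of which 71 were among the 73, whereas leaving out replicate 3 alone left 61, of which 52 were among the 73. In genes, 49 (0.488%) passed without replicate 3 and 204 (2.03%) without replicates 7 and 10.

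**Figure D4:**
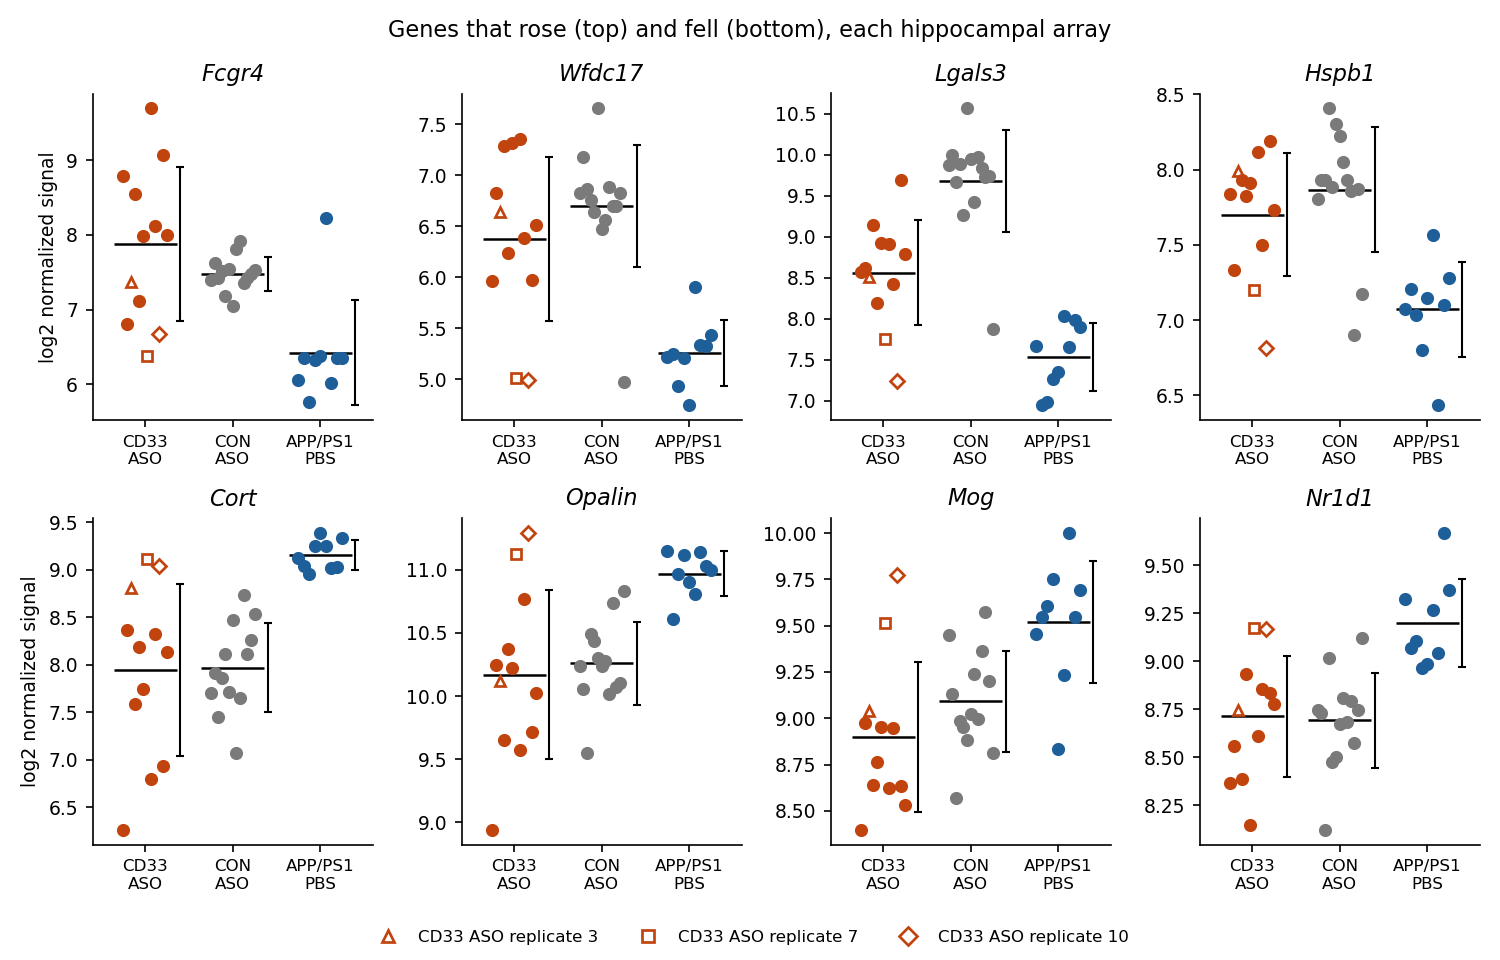
Normalised log2 signal (vertical axes) of 4 genes that rose and 4 that fell, on each array of the CD33 ASO, CON ASO and APP/PS1 PBS groups, with group means (horizontal lines), SDs (error bars) and open symbols for CD33 ASO replicates 3, 7 and 10. Replicates 7 and 10 lie within the PBS range in all 8 panels, except replicate 10 for Opalin, which lies above it.

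Set directly against CON ASO (the non-target oligonucleotide, infused at the same dose), 3 of the 57 genes differed (adjusted p under 0.05), against 12 of 10042 genes overall (0.119%): Cd33, Avil and Lgals3. Without replicates 3, 7 and 10 the count was 4, namely Cd33, Avil, Gdpd3 and Mobp, and 16 probes passed over the whole array. Replicates 7 and 10 had been picked out for lacking Avil signal, so Avil is not a result in that fit. Both also had the highest Cd33 values of their group, so the Cd33 call was favoured there in advance. For the genes that did not pass, a p above the threshold does not show that the 2 oligonucleotides acted alike. The 57 genes had also been selected on arrays that this comparison shares. Against PBS itself, CON ASO called 148 genes (1.47%), 98 higher (0.976%) and 50 lower (0.498%).

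The difference between CD33 ASO and PBS was also tested against that in frontal cortex of the same experiment, with the mouse as a block; 10 CD33 ASO mice and 9 PBS mice gave both tissues. Cd33 differed by -0.89 in hippocampus and -0.71 in cortex, a difference of -0.18 ± 0.18 (limma adjusted p = 0.839). Of 15228 probes, 7 (0.046%) differed between tissues, 1 higher (0.00657%) and 6 lower (0.0394%) in hippocampus relative to cortex, all at an adjusted p of 0.0499. Rtl3 had the largest gap, -0.66 in hippocampus and 0.05 in cortex (-0.71 ± 0.15). Asns, the asparagine synthetase, differed by -0.23 in hippocampus and 0.05 in cortex (-0.28 ± 0.06). Lgi1, a secreted synaptic protein, differed by -0.13 in hippocampus and 0.12 in cortex (-0.25 ± 0.05). Cort, at -0.51 in cortex (adjusted p = 0.305), gave no tissue difference past the threshold (-0.71, adjusted p = 0.427).

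**Figure D5:**
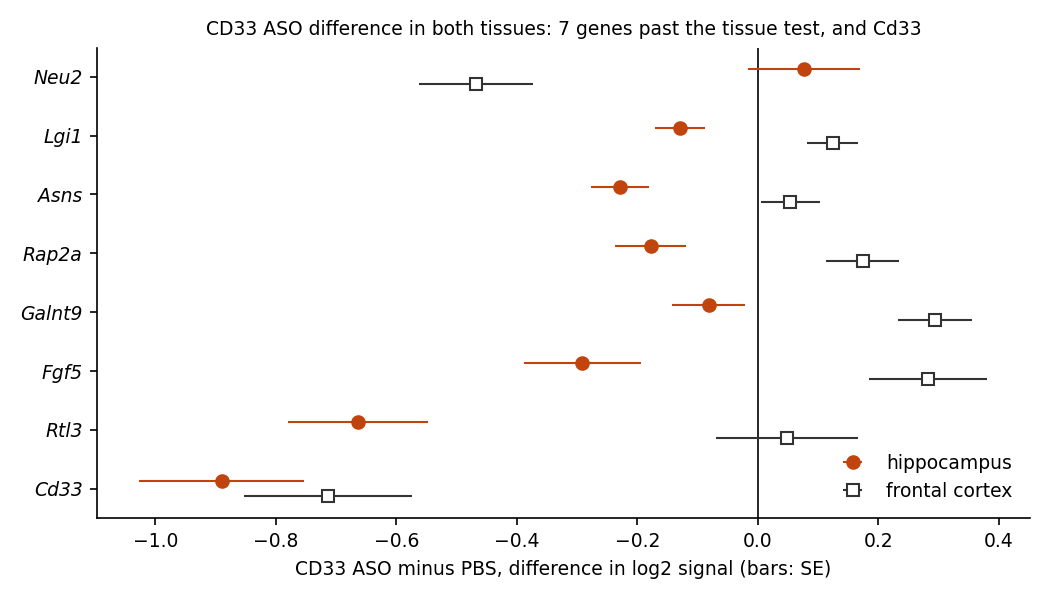
Difference in log2 signal, CD33 ASO minus PBS (horizontal axis, bars show the SE), in hippocampus (orange circles) and frontal cortex (open squares) for Cd33 and the 7 genes whose difference between tissues passed the threshold. Rtl3 lies at -0.66 in hippocampus and 0.05 in cortex, and Cd33 lies below 0 in both.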

How the data were processed

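Illumina bead arrays were hybridised with hippocampal and frontal cortex RNA, per the labels. For each array the deposited signal table gives an intensity and a detection p-value for 25697 probes, per the file headers, and between 22.9% and 26.7% of the intensities of a hippocampal array were negative, which points to an earlier background subtraction of unstated method. BeadStudio, GenomeStudio and Partek were used, per the submitters' processing notes, which give no versions. The submitters' deposited value table covers 17885 probes in log2-like units, every hippocampal array having the median 7.23; its direction and order matched the intensities (rank correlation 1), and its offset is unknown. GEO's array annotation gave 16814 probes 1 gene symbol, 0 several and 8883 none; 16806 matched the current gene table by gene number, and 0 symbols changed.

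Intensities were processed with neqc of limma 3.58.1 (R 4.3.3): normal-exponential background correction from the detection p-values, offset 16, quantile normalization and log2. Probes detected (p under 0.05) on at least 9 of the 46 hippocampal arrays were kept, 14449 in all (10042 genes, 808 probes unnamed). A limma model with 1 mean for each of 4 groups was fitted (trend and robust moderation), with a Benjamini-Hochberg adjusted p threshold of 0.05, two-sided. A gene was read by its brightest kept probe. The tissue comparison used all 91 arrays and 15228 probes, arrays of 1 mouse being correlated at 0.165 (duplicateCorrelation, statmod 1.5.0). The analysis was tested on simulated data. The number of arrays limits precision, and p-values describe the spread between mice.

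Groups came from the titles; the treatment text counts 8 PBS mice where the titles and the series design give 9. The treatment text counts 14 CD33 ASO mice, and 12 hippocampal arrays were analysed. No array pair held identical values. Same-numbered CD33 ASO and PBS arrays correlated at -0.25 to 0.39 in their deviations from group means, 4 of 9 pairs over 0.1. Those numbered 1 to 7 also shared a chip, and the numbers were not treated as a pairing of mice. Named genes were Cd33, Avil, Thy1 and App, the 15 largest called rises and falls, up to 4 called members of each of 35 lists (or up to 2 of smallest p), and the 5 genes of smallest p between tissues. Clock genes, Cst7, Trem2, Gfap, Gpnmb, Mbp, the non-overlapping genes, the smaller called changes and the genes called by another probe were chosen after values were seen. The members and lists were chosen with earlier results of these data known. Alternatives covered background, normalization, filter, weights, chip, day and replicate blocks, the model and single-array omissions.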

Additional observations from a re-analysis of the deposited data

Results flagged for a closer look

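For 8 of the 57 called genes, 1 PBS array stood far from the other 8, by a gap over 0.493 of the group's range, and chance gives about 1 gene in 20. PBS replicate 6 was highest for Fcgr4 (8.22) and Gdpd3 (6.54), and PBS replicate 1 was highest for Avil (5.62) and lowest for Stat5a (5.42). PBS replicate 2 was lowest for Pigz (8.43) and Prr18 (11.16), PBS replicate 5 lowest for Tra2a (10.46) and PBS replicate 8 lowest for Tfrc (11.12). The CD33 ASO group, of over 10 arrays, was not examined in this way.

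The CD33 ASO minus PBS difference was lower in hippocampus than in cortex for Rtl3 (-0.71), Fgf5 (-0.57), Galnt9 (-0.38), Rap2a (-0.35), Asns (-0.28) and Lgi1 (-0.25), and higher for Neu2 (0.54), by the limma interaction test. All 7 had an adjusted p of 0.0499. Galnt9 differed by -0.08 in hippocampus and 0.29 in cortex, and Neu2 by 0.08 in hippocampus and -0.47 in cortex.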

How the results depend on the processing

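Cd33 passed the threshold under all 37 alternatives run, with differences of -1.03 to -0.72, and no called gene changed sign. The count of 73 called probes (26 higher, 47 lower) depended on the settings: it was 14 with median centring (7 higher, 7 lower), 43 with the submitters' value table, 28 with no filter on dim probes, 112 with array weights, 183 with the chip as a block, 7 with the compared groups alone, 253 without CD33 ASO replicates 7 and 10, and 324 without replicates 3, 7 and 10. Leaving out 1 array at a time gave 17 (without CD33 ASO replicate 11) to 152 (without CD33 ASO replicate 7), and moved the count by over 1.5 times for 12 of 21 arrays: CD33 ASO replicates 1 (25), 4 (34), 6 (34), 7, 10 (125), 11 and 12 (39), and PBS replicates 3 (30), 4 (22), 5 (28), 7 (30) and 9 (41). The other settings gave 52 to 80, and the collection day as a block 78 (36 higher, 42 lower). The replicate block gave 96, against 55 on the same arrays without the block, and the numbers were not treated as a pairing. Higher calls made up 35.6% of the total, 50% with median centring, and 54.6% without PBS replicate 6 (53 higher, 44 lower). Within single days 2, 0, 0 and 174 probes passed, the last with 1 CD33 ASO array, and 15 of those 174 were among the 73. All 73 kept their sign on every day and 94.5% to 100% did on each chip, against 59.0% to 75.5% of all probes. The 73 were called on these same arrays, so agreement in sign was favoured in advance and is not a replication. The tissue comparison called 7 probes, 9 without CD33 ASO replicate 3 and mice of one tissue (Asns, Fgf5, Lgi1 and Rtl3 in both counts) and 0 by limma without the mouse block, where 882 of 15228 passed an unadjusted p of 0.05. Cd33, Avil, Gdpd3 and Anln passed in every planned setting; the cause of the other losses was not tested. Dim probes near background, such as Avil, Rtl3 and Cd33, have understated folds.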
